A study of Danio rerio with 2 samples.

Results

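The genes described here encode subunits of respiratory complexes III and IV and of ATP synthase in the injured zebrafish heart. They are the Ensembl gene IDs with a row in the count tables of both hearts whose zebrafish symbol begins with uqcr, cyc1, cox4, cox5, cox6, cox7, cox8, atp5, mt-co, mt-cyb or mt-atp, in upper or lower case, and that held at least 50 counts in a heart. Of 56 IDs with such a symbol, 48 were in both tables, and 47 of those passed the count minimum, out of 14452 IDs in both tables. The ID that did not pass was cox5aa, with 3 counts at 3 days post injury (dpi) and 7 at 7 dpi. The nuclear genome encodes 41 of the 47, of which 8 belong to complex III, 14 to complex IV and 19 to ATP synthase. The mitochondrial genome encodes the other 6, which are MT-CYB of complex III, MT-CO1, MT-CO2 and MT-CO3 of complex IV, and MT-ATP6 and mt-atp8 of ATP synthase. Symbols are spelled as the symbol table gives them. It gives COX5B to 2 of the members, and COX6A1 and cox6a1 to different IDs, so these carry their ID below.

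Complex III passes electrons from ubiquinol to cytochrome c, complex IV passes them from cytochrome c to oxygen, and both pump protons across the inner mitochondrial membrane. ATP synthase lets the protons flow back and makes ATP, the fuel of contraction, and cardiomyocytes are among the cells richest in mitochondria. Mitochondrial DNA encodes cytochrome b of complex III, the catalytic core of complex IV and membrane subunits of ATP synthase, and nuclear genes encode the other subunits, the catalytic head of ATP synthase among them. Several nuclear subunits of complex IV exist as isoforms from paired genes, and in mammals some of these pairs have a form of heart and skeletal muscle and a form found in most tissues.

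The measurements were CEL-seq counts, which read the 3′ ends of polyadenylated RNA, of single 12 µm cryosections cut from the injury area toward the uninjured remote myocardium. Each group was 1 adult heart whose ventricle had been cryoinjured, a freezing injury that kills a patch of muscle. One group was taken at 3 dpi and the other at 7 dpi. Both titles read WT, and the sources used here do not give strain, sex or exact age. Ventricles were embedded unfixed, neither group was uninjured, and each group was a single heart. Differences are therefore given as values without a test, and intervals cover counting error only. Sections of a heart are not replicates of each other, and a fold between the hearts cannot be told apart from a difference between individual animals.

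Of 40 sections at 3 dpi, 35 held enough counts to be used (39495 to 302404 each, median 98915), and of 38 sections at 7 dpi, 24 did (20832 to 813848 each, median 66331). Each heart was divided into 3 runs of sections with no member gene used to place the borders. They are called the injury side (sections 1 to 10 in both hearts), the middle (11 to 20 at 3 dpi, 11 to 17 at 7 dpi) and the remote side (21 to 40 at 3 dpi, 18 to 34 at 7 dpi). The sections used numbered 5, 10 and 20 at 3 dpi and 7, 6 and 11 at 7 dpi. With sections 2 to 6 left out, the 3 dpi injury side was section 1 and sections 7 to 10. Levels are counts per 1000000 gene counts (CPM) of the summed sections. myl7, a myosin light chain of cardiomyocytes, was 1938 CPM on the injury side and 13787 CPM on the remote side at 3 dpi. Within that injury side it was 225.2 CPM in section 1 and 1256 to 3231 CPM in sections 7 to 10. At 7 dpi it held only 5 counts on the injury side and 10 in the middle, against 7093 on the remote side, or 2857 CPM. The contractile gene list summed to 2152 to 19011 CPM per injury-side section and 44502 to 72469 CPM per remote section at 3 dpi. At 7 dpi these ranges were 180.8 to 474.3 CPM and 1666 to 43826 CPM, so the 7 dpi remote side held both sections poor in muscle RNA and sections rich in it. The leukocyte list ran the other way at 3 dpi, from 4609 CPM on the injury side to 368.4 CPM on the remote side, and at 7 dpi it was 1792 CPM, 3350 CPM in the middle and 1136 CPM. Section 34 alone held 32.8% of the 7 dpi remote counts. The part that these lists played in the results below was not tested, and in sections, fewer cells of a type and less RNA per cell cannot be told apart.

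In both hearts most respiratory genes were higher on the remote side. At 3 dpi, 32 of 47 were at least 2-fold higher there than at the injury, as were 15.7% of all 4858 gene IDs with enough counts. Only 2 of the 47 were higher at the injury by 2-fold or more, as 34% of all IDs were. At 7 dpi, 29 of 46 were at least 2-fold higher on the remote side (23.2% of all 4729 IDs) and 0 on the injury side (9.09%). UQCRB, a small complex III subunit, had 11 counts at 7 dpi and is not among the 46. The median log2 difference, remote minus injury, was 1.24 for the 47 members and -0.54 for all IDs at 3 dpi, and 1.11 against 0.13 at 7 dpi. All IDs moved with the scaling at 3 dpi, where median-of-ratios factors put their median at 0.30 and that of the members at 2.1, with 43 of 47 past 2-fold against 30.4% of all IDs. Where the borders lay also mattered. With the 3 dpi sections in 3 runs of equal number, the first reaching section 17, 9 members of 47 were past 2-fold against 5.76% of all IDs. Counting only 3 dpi sections with at least 40% of the 75th percentile of section totals gave 20, against 11.3% of all IDs. The 7 dpi count was 10 of 46 without section 34, against 24% of all IDs, and 9 when each gene's section of most counts was left out, against 21.2%. Both shares are near the background, so without its deepest section the 7 dpi count by itself does not set the members apart, though their median log2 difference without section 34 was 0.66 and that of all IDs 0.21. The count was 17 when every section weighed the same, against 28.7% of all IDs.

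Along the 3 dpi heart the summed nuclear members were higher in steps, without overlap between the ends. Injury-side sections held 15863 CPM at the lowest, 22430 at the median and 23334 at the highest, middle sections 26354, 37096 and 47216, and remote sections 43544, 49918 and 59064. Every remote section was above every injury-side section, and the middle reached into the remote range. The domain sums were 21393, 36121 and 50205 CPM, a remote-to-injury fold of 2.35 (95% Poisson interval 2.29 to 2.41). The 6 mitochondrial genes summed to 22579, 43855 and 60946 CPM, a fold of 2.70 (2.63 to 2.77). Over the same span myl7 was 7.11-fold higher (6.52 to 7.78), so the respiratory genes had the shallower slope.

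The sums were lower at 7 dpi, and the injury side and the middle lay in the same range. Nuclear members ranged from 7432 to 12107 CPM over injury-side sections (median 10397), from 7920 to 10473 in the middle (median 9283) and from 8657 to 33934 on the remote side (median 12581). Remote sections 18 to 26 reached at most 14856 CPM, close to the injury side, whereas sections 30, 31, 32 and 34 held 23310, 28005, 25617 and 33934 CPM. Those 4 sections also had the most myl7, at 3019 to 5279 CPM against at most 1458 in the other remote sections. The nuclear sum was 2.07-fold higher on the remote than on the injury side (2.01 to 2.13), and 1.49-fold (1.45 to 1.54) without section 34. For the mitochondrial genes the fold was 2.09 (2.04 to 2.13), and 1.28 (1.25 to 1.30) without that section. In the middle of the 7 dpi heart 23 of 46 members were at least 2-fold below the mean of the other domains (23.8% of all IDs), and 0 were above it (13.9%). That mean includes the remote side. Nuclear sums were 10447 CPM on the injury side, 9169 in the middle and 21589 remotely, and mitochondrial sums 20003, 13667 and 41758. The members' median log2 difference in the middle was -0.99, near the 2-fold limit, and -0.71 without section 34. At 3 dpi neither direction held a member in the middle (2.76% of all IDs higher, 4.03% lower).

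**Figure D1:**
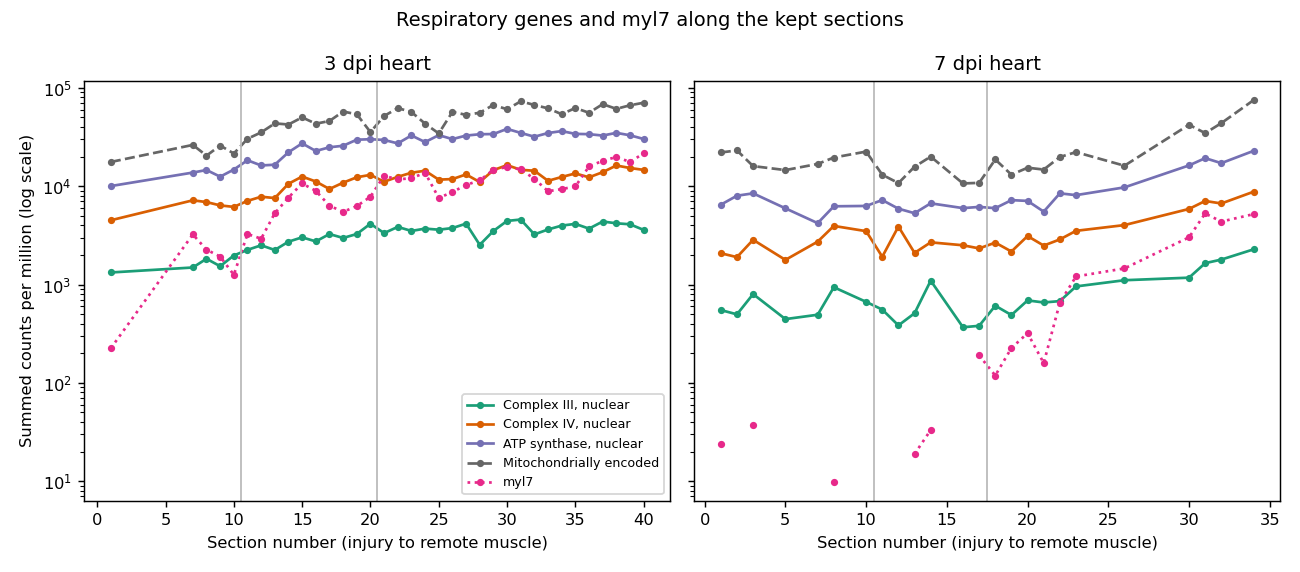
Summed CPM on a log axis against section number in each heart, for the nuclear genes of complex III, complex IV and ATP synthase, the mitochondrially encoded genes and myl7, with points for used sections and vertical lines at the domain borders. At 3 dpi all sets climb from left to right. At 7 dpi the nuclear sets stay in a low range up to section 21 and then climb with myl7, whose sections without counts have no point. The mitochondrially encoded genes dip in the 7 dpi middle before they climb.

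The plot of sums by section shows the sets moving together at 3 dpi and less closely at 7 dpi. Across the 35 sections of the 3 dpi heart the log levels of nuclear and mitochondrial members had a Pearson r of 0.887 (Spearman 0.788), and across the 24 sections at 7 dpi 0.854 (0.66). With the contractile list the nuclear members had r of 0.905 (0.852) and 0.792 (0.653), and with the leukocyte list -0.921 (-0.865) and -0.79 (-0.681). The mitochondrial members had r of 0.880 (0.861) with the contractile list at 3 dpi and 0.601 (0.349) at 7 dpi. These values describe sections of the same heart, and within a section both sets are scaled to the same total. They have no test.

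Complex III was 2.36-fold higher on the remote side at 3 dpi (nuclear sum, 1647 against 3880 CPM, interval 2.14 to 2.60) and 2.03-fold at 7 dpi (704.7 against 1432 CPM, 1.82 to 2.28). Without section 34 the 7 dpi fold of complex III was 1.445 (1.29 to 1.63). Of its nuclear genes, 5 of 8 were past 2-fold at 3 dpi (15.7% of all IDs) and 3 of 7 at 7 dpi (23.2%), the latter 1 of 7 without section 34. The steepest was CYC1, cytochrome c1, which carries electrons out of the complex. Its injury-side sections at 3 dpi held 100, 314, 248, 303 and 219 CPM, and its remote sections 329.2 at the lowest, 903.5 at the median and 1358 at the highest. The groups did not overlap, and the summed level was 3.74-fold higher remotely (2.92 to 4.86). At 7 dpi CYC1 ranged from 0 to 187.7 CPM over injury-side sections (median 38.2) and from 32.8 to 480.3 over remote ones (median 110.6), which overlap, with a fold of 2.57 (1.83 to 3.71). Its remote counts were highest in section 32, with 40.3% of them, and without that section the fold was 1.81.

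UQCRC1 and UQCRC2 are the core proteins of complex III. UQCRC1 was 2.91-fold higher on the remote side at 3 dpi (2.27 to 3.80) and 2.18-fold at 7 dpi (1.76 to 2.73), or 1.3-fold without section 34. UQCRC2, from 136 to 332.7 CPM at 3 dpi, was 2.45-fold higher (1.75 to 3.52), and at 7 dpi 1.97-fold (1.40 to 2.84), or 1.19-fold without section 34. Its paired gene uqcrc2a had 45.3 and 72.8 CPM at 3 dpi and 51.7 and 57.2 CPM at 7 dpi, and the intervals of its folds, 1.605 and 1.11, include no difference (0.899 to 3.16 and 0.720 to 1.77). The intervals of the copies overlap in both hearts. UQCRFS1, the Rieske iron-sulfur protein, was 2.38-fold higher at 3 dpi (1.85 to 3.10) and 1.60-fold at 7 dpi (1.21 to 2.15), where without section 34 its direction turned, at 0.927-fold. UQCRH, the hinge protein beside cytochrome c1, was the flattest at 3 dpi, at 1.54-fold (1.22 to 1.97), and was 1.88-fold higher at 7 dpi (1.40 to 2.58). UQCRQ, a small subunit near cytochrome b, was 1.84-fold higher at 3 dpi (1.53 to 2.24) and 2.55-fold at 7 dpi (1.88 to 3.55), or 1.63-fold without section 34. UQCRB rested on 1 injury-side count at 3 dpi, and its ratio of 3.93 had an interval of 0.666 to 159.1.

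Complex IV held the widest spread. As a sum its nuclear genes were 2.13-fold higher on the remote side at 3 dpi (6373 against 13555 CPM, interval 2.03 to 2.24) and 1.79-fold at 7 dpi (3139 against 5612 CPM, 1.7 to 1.89), the smallest of the 3 complexes in both hearts. Inside that sum, log2 differences ran from -1.47 to 2.70 at 3 dpi and from -0.40 to 6.33 at 7 dpi, against 0.46 to 1.77 and -0.54 to 2.0 for the nuclear genes of ATP synthase. The 4 steepest genes toward the remote side were the same in both hearts, and each had an isoform partner lower in the range. In 4 pairs, of the subunits 4, 5b, 6a and 7a, a copy was strongly remote-sided and its partner was less so, level, or higher at the injury. Members of a pair may share reads where their sequences are alike, which the counts do not show. Counts were not divided by transcript length, so the share of a pair's counts is read only for how it moved along the heart.

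**Figure D2:**
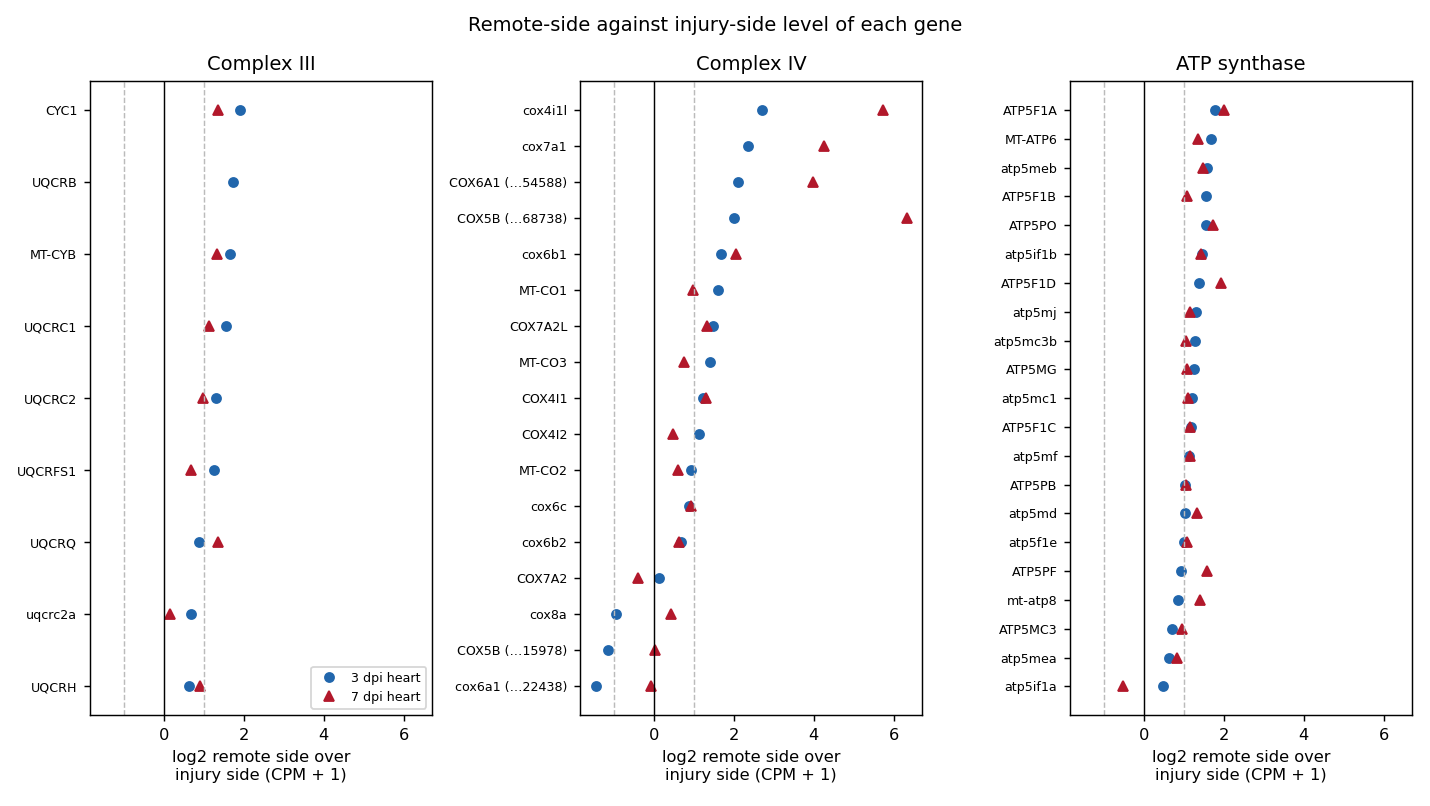
Log2 of remote-side over injury-side level, on CPM + 1, of every member, with circles for the 3 dpi heart and triangles for the 7 dpi heart, and dashed lines at 2-fold. Complex III and ATP synthase genes lie in a narrow band, while complex IV genes run from -1.47 to 6.33, and UQCRB has no 7 dpi point.

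In subunit 5b the copies ran in opposite directions at 3 dpi. COX5B (ENSDARG00000068738) held 0, 267, 263, 195 and 159 CPM in the 3 dpi injury-side sections and 329.2 to 998 CPM in the remote ones (median 777), with no overlap, for a fold of 4.0 (3.03 to 5.39). COX5B (ENSDARG00000015978) ran against it, with 375, 220, 387, 627 and 498 CPM at the injury and 55.3 to 283.1 CPM on the remote side (median 186.7). It was 2.25-fold higher at the injury (1.81 to 2.77), with section ranges that overlapped only between 219.6 and 283.1 CPM. The first copy thus made up 32.1% of the pair's counts on the injury side (exact binomial interval 24.9 to 39.9%), 64.7% of those in the middle and 80.9% remotely (79.4 to 82.5%). At 7 dpi it had 1 count on the injury side, 1 in the middle and 610 remotely, with a ratio of 118.9 whose interval of 21.3 to 4704 reflects that single count, and 36.3 without section 34. Its share went from 0.162% to 0.658% to 16.1%, and was 9.48% on the remote side without section 34. The second copy was level at 7 dpi, at 1271 and 1277 CPM, and carried nearly all of the pair's counts outside the last sections.

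Subunit 6a behaved in a like way. COX6A1 (ENSDARG00000054588) held 25, 565, 341, 411 and 279 CPM at the 3 dpi injury and 809.7 to 2054 CPM on the remote side (median 1511), without overlap, and was 4.26-fold higher there (3.46 to 5.30). cox6a1 (ENSDARG00000022438) held 200, 471, 403, 151 and 478 CPM at the injury and 33.2 to 273.7 CPM remotely (median 102.8), overlapping, and was 2.79-fold higher at the injury (2.20 to 3.50). These last 2 copies, of subunits 5b and 6a, were the only members with the injury side at least 2-fold above the remote side, and under median-of-ratios scaling both kept that direction below 2-fold, at -0.30 and -0.61 on the log2 scale. The remote-sided copy of 6a went at 7 dpi from 9 injury-side counts to 769, a fold of 16.7 (8.73 to 36.6), or 9.53 without section 34, and its partner was level at 134.3 and 127.7 CPM. Through the domains the share of the remote-sided copy went from 49.2% to 79.7% to 92.0% at 3 dpi and from 12.2% to 44.4% to 70.8% at 7 dpi, where the last was 63.8% without section 34. The 7 dpi middle share was 8 of 18 counts (21.5 to 69.2%). By section the 7 dpi median shares were 0%, 43.75% and 45.45%, so the middle and the remote side were alike by that measure.

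In subunit 7a the names match known mammalian isoforms, COX7A1 being the heart and skeletal muscle form and COX7A2 the form of most tissues. cox7a1 held 75.1, 518, 558, 454 and 538 CPM at the 3 dpi injury and 1656 to 2903 CPM in remote sections (median 2343), without overlap, and was 5.12-fold higher there (4.28 to 6.19). COX7A2 was level, at 264.4 and 287 CPM, with a fold of 1.09 (0.849 to 1.41). At 7 dpi cox7a1 had 9 injury-side counts and 924 remote ones, a fold of 20.01 (10.5 to 43.9), or 10.9 without section 34, and reached 697.9 CPM in its highest section. COX7A2 had 53 and 205 counts, and its remote-to-injury fold of 0.754 had an interval that includes no difference (0.555 to 1.04). The share of cox7a1 went from 63.2% to 78.5% to 89% at 3 dpi and from 14.5% to 43.8% to 81.8% at 7 dpi. The 7 dpi middle share was 7 of 16 counts (19.75 to 70.1%). COX7A2L, which despite its name joins complexes III and IV into supercomplexes in mammals, was 2.78-fold higher remotely at 3 dpi (2.07 to 3.81) and 2.51-fold at 7 dpi (1.96 to 3.28, or 1.85-fold without section 34), in the range of the complex III genes.

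In subunit 4, which takes part in the control of the complex by ATP in mammals, both main copies leaned to the remote side but to different extents. cox4i1l held 25, 125, 93, 195 and 140 CPM at the 3 dpi injury and 405.1 to 1161 CPM in remote sections (median 654.4), without overlap, a fold of 6.52 (4.58 to 9.63). COX4I1 was 2.32-fold higher (2.03 to 2.65), from 891.5 to 2066 CPM. At 7 dpi cox4i1l had 2 injury-side counts against 670, a ratio of 65.3 (18.01 to 540.3), whereas COX4I1 was 2.45-fold higher (1.99 to 3.05). Without section 34 these were 27.9 and 1.70. The share of cox4i1l was 11.5%, 20.1% and 26.8% over the domains at 3 dpi and 1.87%, 4.08% and 34.4% at 7 dpi. COX4I2, an isoform tied to low oxygen in mammals, was rare, with 3 and 69 counts at 3 dpi and 8 and 58 at 7 dpi on the 2 sides, and its intervals include no difference (0.742 to 11.2 and 0.672 to 3.43).

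The remote-sided copies of these 4 pairs kept their direction in all 12 alternative settings at 3 dpi and all 13 at 7 dpi. Their log2 differences were lowest with runs of equal number at 3 dpi, at 1.58 for cox4i1l, 0.91 for COX5B (ENSDARG00000068738), 1.16 for COX6A1 (ENSDARG00000054588) and 1.27 for cox7a1. Without section 34 at 7 dpi they were 4.80, 5.18, 3.25 and 3.45. Section 1, the outermost, held the least of each of the 4 among the 3 dpi injury-side sections. All 4 were among the 10 members still past 2-fold at 7 dpi without section 34. The others were cox6b1, CYC1, ATP5F1A, ATP5F1D, atp5if1b and ATP5PF.

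**Figure D3:**
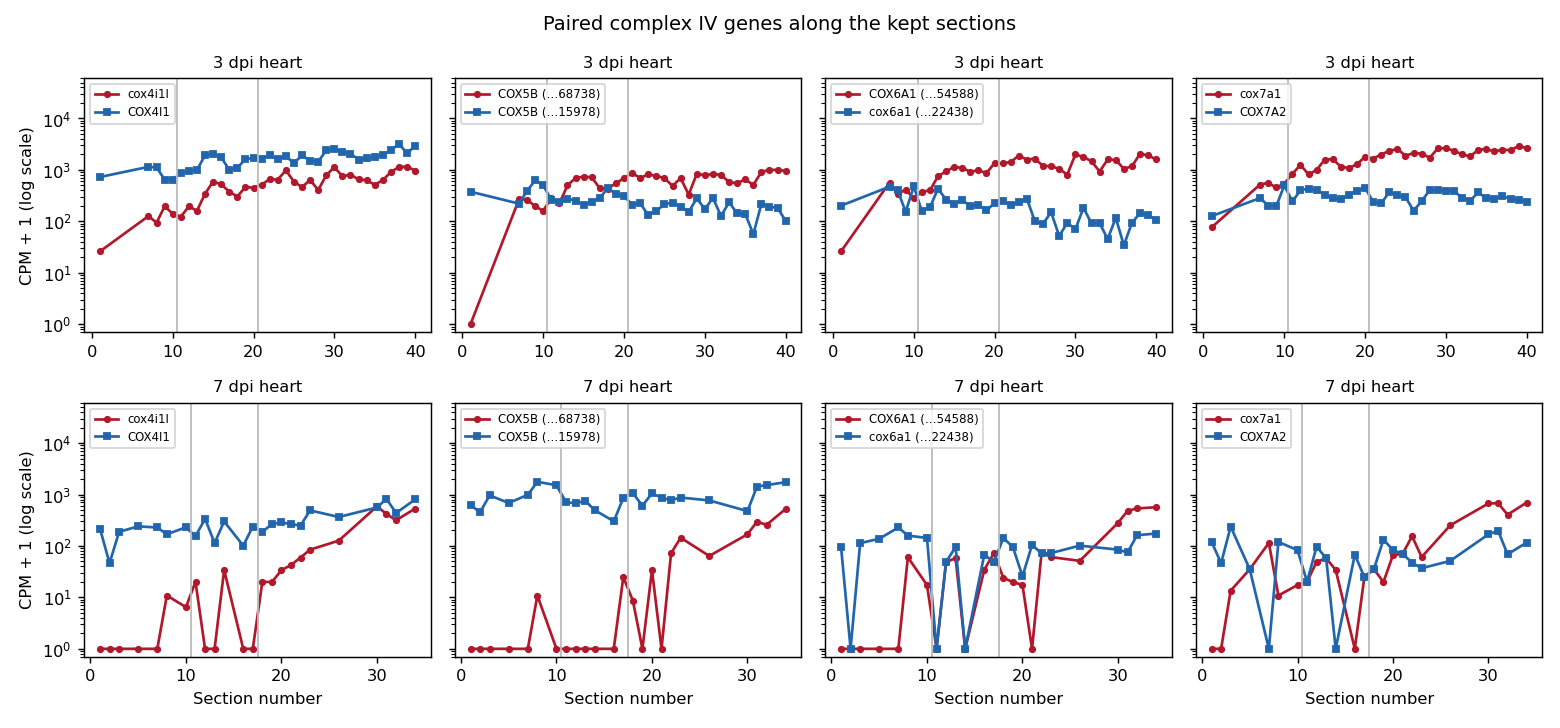
CPM + 1 on a log axis against section number for 4 pairs of complex IV genes, 3 dpi above and 7 dpi below, with vertical lines at the domain borders. In each panel the red, remote-sided copy is highest toward the right. At 7 dpi it has no counts in several sections of the injury side and the middle, except that cox7a1 lacks counts only in sections 1, 2 and 16. COX5B (ENSDARG00000068738) and COX6A1 (ENSDARG00000054588) also have remote sections without counts at 7 dpi.

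The other complex IV genes had shallower slopes. cox6b1 was 3.22-fold higher on the remote side at 3 dpi (2.49 to 4.22) and 4.21-fold at 7 dpi (2.52 to 7.61, from 15 counts on the injury side). Its partner cox6b2, whose mammalian counterpart is a testis form, was 1.59-fold (1.42 to 1.78) and 1.53-fold (1.32 to 1.79) higher. cox6b1 held 16.05% of that pair at the 3 dpi injury and 27.9% remotely, and 7.25% and 17.7% at 7 dpi. cox6c was 1.84-fold (1.64 to 2.08) and 1.9-fold (1.65 to 2.19) higher, the latter 1.23-fold without section 34. cox8a, the only copy of subunit 8 in both tables, leaned to the injury at 3 dpi, where its sections held 776, 659, 449, 584 and 498 CPM against 177.2 to 515.5 CPM remotely (median 281.2). That was 1.96-fold higher at the injury (1.64 to 2.33), or -0.97 on the log2 scale. This lean in CPM depends on the scaling, since median-of-ratios factors raised the members' median log2 difference from 1.24 to 2.1. At 7 dpi cox8a was 1.35-fold higher remotely (1.14 to 1.60), a direction that turned without section 34, where its log2 difference was -0.22.

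The mitochondrially encoded core of complex IV differed among its 3 genes. MT-CO1, which holds the site where oxygen is reduced, was 3.04-fold higher remotely at 3 dpi (2.76 to 3.36), from 1598 to 4860 CPM. MT-CO3 was 2.65-fold (2.49 to 2.82) and MT-CO2, the docking site of cytochrome c, 1.88-fold higher (1.79 to 1.98). The 7 dpi folds were 1.97 (1.77 to 2.19), 1.69 (1.59 to 1.80) and 1.51 (1.45 to 1.57), the order of the 3 genes being the same in both hearts, and 1.44, 1.29 and 1.04 without section 34. MT-CYB, the cytochrome b of complex III, was 3.12-fold higher at 3 dpi (2.92 to 3.34) and 2.48-fold at 7 dpi (2.38 to 2.60), or 1.31-fold without section 34. MT-ATP6, the proton channel subunit of ATP synthase, was 3.19-fold (3.05 to 3.34) and 2.53-fold (2.43 to 2.62) higher, the latter 1.44-fold without that section. At 7 dpi 64.6% of the remote MT-CYB counts and 61.6% of those of MT-ATP6 came from section 34. mt-atp8 overlaps MT-ATP6 on the same transcript, so its 12 and 220 counts at 3 dpi and its 36 and 488 at 7 dpi on the 2 sides cannot be assigned with certainty.

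Counts of the mitochondrial set were 1.06 times those of the nuclear set on the 3 dpi injury side and 1.21 times in both the middle and the remote side. Section values ran from 0.876 to 1.27 at the injury and from 0.712 to 1.46 remotely, so the domains overlapped. The 7 dpi ratios were 1.92, 1.49 and 1.93, but the section medians were 2.15, 1.28 and 1.705. Remote sections ran from 1.09 to 2.21, the highest being section 34, which weighs most in the summed ratio. Every 7 dpi injury-side section, at 1.32 to 2.42, was above the highest of the 3 dpi injury side.

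ATP synthase was more uniform than complex IV, though not than complex III. Its nuclear sum was 2.45-fold higher remotely at 3 dpi (13373 against 32769 CPM, interval 2.37 to 2.54) and 2.20-fold at 7 dpi (6603 against 14546 CPM, 2.13 to 2.29), and 1.59-fold (1.53 to 1.65) at 7 dpi without section 34. At 3 dpi 15 of 19 nuclear genes were past 2-fold (15.7% of all IDs), and at 7 dpi 16 of 19 (23.2%). Without section 34 the 7 dpi count was 4 of 19, with 24% of all IDs past 2-fold, and the 4 were ATP5F1A, ATP5F1D, atp5if1b and ATP5PF. ATP5F1A, the alpha subunit of the catalytic head, held 425, 800, 837, 454 and 957 CPM at the 3 dpi injury and 1487 to 2993 CPM remotely (median 2440), without overlap. It was 3.42-fold higher there (2.96 to 3.97) and 4.02-fold at 7 dpi (3.14 to 5.21), the largest of the nuclear ATP synthase genes in both hearts. ATP5F1B, the beta subunit that makes the ATP, held 1551 to 3069 CPM in injury-side sections and 4152 to 8306 CPM in remote ones at 3 dpi, 2.91-fold higher as a sum (2.68 to 3.17), and was 2.12-fold higher at 7 dpi (1.86 to 2.42), or 1.92-fold without section 34.

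Stalk and membrane subunits followed closely. ATP5F1D, the delta subunit of the central stalk, was 2.58-fold (2.13 to 3.16) and 3.81-fold (2.67 to 5.62) higher remotely, and ATP5PO, the peripheral stalk protein that confers oligomycin sensitivity, 2.91-fold (2.42 to 3.52) and 3.32-fold (2.47 to 4.55). Without section 34 the 7 dpi fold of ATP5PO was 1.96. The c-ring genes did not part as the complex IV pairs did. atp5mc1 was 2.30-fold (2.08 to 2.56) and 2.14-fold (1.97 to 2.33) higher, and atp5mc3b 2.43-fold (2.20 to 2.69) and 2.07-fold (1.89 to 2.26). Both lost the 2-fold difference at 7 dpi without section 34, at 1.38 and 1.33-fold. The share of atp5mc3b stayed between 47.2% and 50.5% over the 3 dpi domains and between 45.4% and 49.7% at 7 dpi, and ATP5MC3 never held more than 5.64%. Of the paired genes for subunit e, which helps ATP synthase form dimers, atp5meb was 2.95-fold higher at 3 dpi (2.46 to 3.58) and atp5mea 1.55-fold (1.18 to 2.08).

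The inhibitor of the complex, ATP5IF1, which blocks ATP hydrolysis when the proton gradient fails, has 2 genes that also parted. atp5if1b was 2.71-fold higher remotely in both hearts (2.17 to 3.44 at 3 dpi, 1.91 to 3.95 at 7 dpi). atp5if1a held 136 and 187.5 CPM at 3 dpi, with an interval of its fold that includes no difference (0.983 to 1.99), and 90.9 and 62.4 CPM at 7 dpi, a fold of 0.687 (0.489 to 0.983). It was the lowest of the ATP synthase genes in both hearts, on 36 and 44 injury-side counts. The share of atp5if1b was 68.7%, 76.5% and 81.2% over the 3 dpi domains and 43.6%, 76.7% and 75.3% at 7 dpi. The 7 dpi middle share was 23 of 30 counts (57.7 to 90.1%).

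Set against myl7, the respiratory genes were higher near the injury, since myl7 had the steeper slope. At 3 dpi the summed nuclear members gave 11.04 counts per myl7 count on the injury side, 5.62 in the middle and 3.64 remotely, and the mitochondrial ones 11.7, 6.83 and 4.42. Sections ranged from 6.94 to 70.4 nuclear counts per myl7 count at the injury (median 10.6) and from 2.25 to 6.36 remotely (median 3.74), without overlap. The ratio was at least 2-fold higher at the injury for 42 of 47 members, but so it was for 93.2% of all IDs, and at least 2-fold lower for 0 (1.77%), and the members' median log2 difference of 1.59 was below the 3.37 of all IDs. Within a heart these differences are the CPM differences set against that of myl7, and so are no separate measure. Runs of equal number gave 13 of 47 (84.5% of all IDs), and the contractile sum as denominator gave 20 (85.9%), with a members' median of 0.90. The 5 members below 2-fold were cox4i1l, cox7a1, COX6A1 (ENSDARG00000054588), COX5B (ENSDARG00000068738) and CYC1, the 5 with the largest log2 differences, and the ratio of cox4i1l was only 1.10-fold apart. In the 7 dpi heart it was at least 2-fold higher at the injury for 46 of 46 members (99.6% of all IDs) and lower for 0 (0.0423%), but it rested there on 5 myl7 counts, with 0 in 4 of 7 sections.

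Between the hearts, levels on the remote side were lower at 7 dpi. Of 46 members, 31 were at least 2-fold lower in CPM at 7 than at 3 dpi (12.1% of all 3598 IDs) and 2 at least 2-fold higher (30.7%). myl7 was 4.83-fold lower itself (4.70 to 4.95). In 2 settings the 7 dpi remote side was only sections 30 to 34, those rich in muscle RNA. There the count of lower members was 23 with 4 runs (12.8% of all IDs) and 21 with a section minimum of 40% (13.3%). Over all alternative settings that count ran from 21 to 34. Per myl7 count, 20 of 46 members were at least 2-fold higher at 7 dpi (90.9% of all IDs) and 0 at least 2-fold lower (0.278%), with a median log2 difference of 0.74 against 2.64. With the contractile sum as denominator the count was 10 (75.6% of all IDs) and the members' median turned to -0.14, so the direction of the typical member depended on the denominator. Summed nuclear members gave 3.64 counts per myl7 count remotely at 3 dpi and 7.56 at 7 dpi. Their 7 dpi sections ranged from 5.31 to 78.0, and the 4 sections richest in myl7, at 5.31 to 7.72, overlapped the 3 dpi range of 2.25 to 6.36. Over all used sections the nuclear ratio was 4.01 at 3 dpi and 8.54 at 7 dpi, and the mitochondrial ratio 4.84 and 16.4.

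The members whose difference between hearts was nearest to that of myl7 included several of the remote-sided ones. CYC1 gave 0.0666 counts per myl7 count at 3 dpi and 0.0668 at 7 dpi, COX6A1 (ENSDARG00000054588) 0.107 and 0.108, and ATP5MG, subunit g of ATP synthase, 0.155 and 0.155. At 7 dpi section 34 held 4230 of the 7093 remote myl7 counts but 159 of the 474 of CYC1. The match of CYC1 therefore leaned on that section. cox7a1, ATP5F1B and cox6b1 gave fewer counts per myl7 count at 7 dpi, at 0.773, 0.818 and 0.850 times their 3 dpi ratio. At the other end stood COX5B (ENSDARG00000015978), with 181.6 CPM on the 3 dpi remote side and 1277 CPM at 7 dpi, 7.03-fold more CPM and 33.9-fold more per myl7 count. Its lowest 7 dpi remote section, at 475.2 CPM, was above its highest at 3 dpi, at 283.1 CPM. atp5f1e, the epsilon subunit, gave 8.29-fold more per myl7 count and cox8a 7.35-fold. mt-atp8 gave 11.6-fold more, on counts that cannot be assigned with certainty beside MT-ATP6. MT-CYB was level in summed CPM, at 10646 and 10769, and so 4.88-fold higher per myl7 count. Its 7 dpi level leaned on section 34, with 64.6% of its remote counts. Its remote section medians were 9938 CPM at 3 dpi and 4361 CPM at 7 dpi. cox6a1 (ENSDARG00000022438), COX4I2, atp5mc1, uqcrc2a and ATP5F1C completed the 10 largest, at 4.78, 4.4, 3.98, 3.79 and 3.75-fold.

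**Figure D4:**
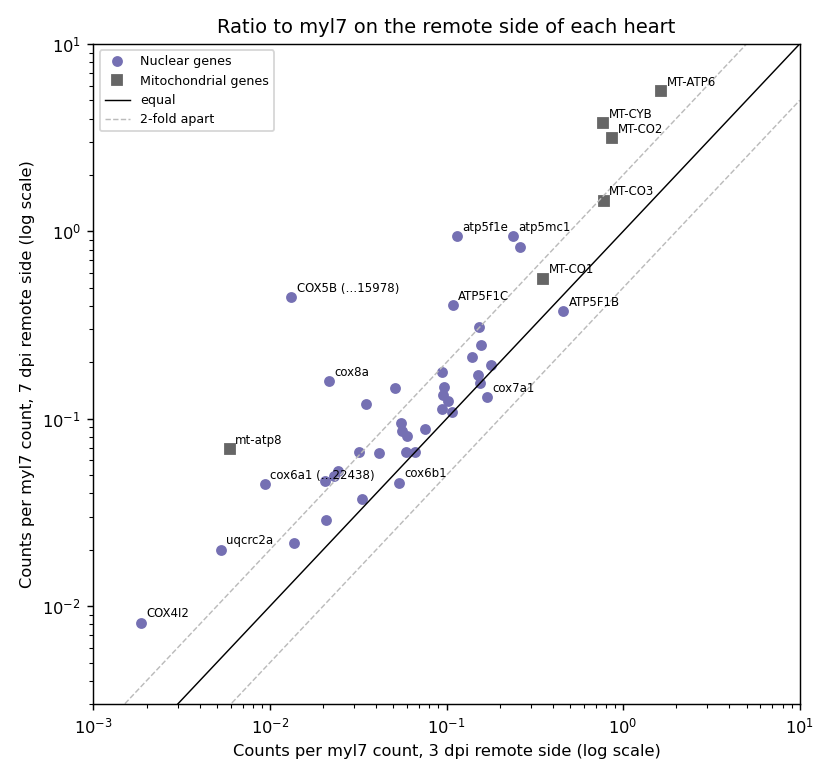
Counts per myl7 count on the remote side of the 3 dpi heart (horizontal, log axis) and of the 7 dpi heart (vertical, log axis), a point per member, with lines at equality and 2-fold. Most points lie between equality and a few-fold above it, and COX5B (ENSDARG00000015978) stands farthest, at 0.0132 and 0.447.

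Complex I, which passes electrons to ubiquinone upstream of complex III, was also higher on the remote side in both hearts. Its nuclear sum was 2.22-fold higher remotely at 3 dpi (5750 against 12754 CPM, interval 2.11 to 2.34) and 1.64-fold at 7 dpi (14155 against 23254 CPM, 1.60 to 1.69). Unlike the nuclear members, whose sums were lower at 7 than at 3 dpi on both sides, that sum was higher at 7 dpi on both. Across sections its log level had r of 0.986 with the nuclear members at 3 dpi and 0.723 at 7 dpi. The counts that follow stand beside the shares of all IDs with enough counts. Those at least 2-fold higher remotely were 15.7% at 3 dpi and 23.2% at 7 dpi, and those higher at the injury 34% and 9.09%. Counts of 1 of 4, 1 of 5 and 2 of 9 below lie near these shares, and the 7 dpi counts include section 34. Of the nuclear complex I genes, 22 of 34 were at least 2-fold higher remotely at 3 dpi and 18 of 34 at 7 dpi. Their medians were 1.22 and 1.05 on the log2 scale, and of the mitochondrial complex I genes 7 of 7 and 3 of 6 were past 2-fold. Complex II, which is part of the citrate cycle as well, had 1 of 4 and 3 of 4. Cytochrome c itself, a single ID, differed by 0.82 at 3 dpi and 1.55 at 7 dpi. Assembly factors of complexes III to V had 7 of 16 and 2 of 9, and regulators of mitochondrial DNA and biogenesis 0 of 6, with 1 higher at the injury, and 2 of 4. For comparison, 10 of 12 contractile genes were past 2-fold at 3 dpi (median 1.97) and 13 of 14 at 7 dpi (median 6.35), while 9 of 9 leukocyte genes at 3 dpi and 5 of 11 at 7 dpi were at least 2-fold higher at the injury. Endothelial genes past 2-fold on the remote side numbered 1 of 5 and 3 of 3, those of the matrix 0 of 9, with 7 higher at the injury, and 1 of 10, and those of red cells 0 of 4, with 2 higher at the injury, and 1 of 4.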

How the data were processed

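Each cryosection was a CEL-seq library. The deposited tables hold raw counts, 1 row per Ensembl gene ID and 1 column per section, with no normalization. They are entered under the unit other, because the automatic unit test could not read the bare section numbers that name the columns. TRIzol was used for extraction, per the labels' protocols, and alignment was by BWA 0.6.2, per the submitters' processing notes. The sources used here do not give the genome build, annotation, strand or whether molecular identifiers were counted. Reads without identifiers are not independent molecules.

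Spike-in rows (171 and 8631 counts) stayed out of all totals. A table of names gave symbols to 13441 and 13135 of 16476 and 16115 IDs. It mixes upper and lower case, so lists were matched in either case, also without a final a or b, a rule made after the names were seen. An ID that it does not name, ENSDARG00000080337, took 9.2%, 17.9% and 22.8% of counts over the 3 dpi domains and 3.67% at 7 dpi. Another, ENSDARG00000077505, took 11.2%, 9.09% and 5.39% over the 7 dpi domains and 0.0231% at 3 dpi. CPM without both IDs gave 37 of 47 members past 2-fold on the remote side at 3 dpi (19.3% of all IDs). At 7 dpi it gave 24 of 46 (21.6%).

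Sections with at least 20% of the 75th percentile of section totals in their heart were used. Borders came from a least-squares division into 3 runs of at least 4 sections on log2(CPM + 10) of 2000 IDs that are neither members nor in a list. Counts were summed per domain, scaled to 1000000, and log2 differences used a pseudocount of 1 CPM, among IDs with at least 50 counts. Folds have exact 95% Poisson intervals and shares exact binomial (Clopper-Pearson) ones. No test was made. The folds, the 2-fold calls and the fold intervals were tested on counts simulated within the borders found here. Those counts had Poisson error only and the same level in all sections of a domain. How the intervals fare with spread between sections was therefore not tested. The division itself was not tested in that way. Tools were Python 3.11.15, pandas 2.3.3, NumPy 2.4.6 and SciPy 1.17.1.

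Members and lists were chosen with earlier results of these data known. Named are all mitochondrial members, the isoform groups, per complex the 3 steepest and 2 flattest nuclear genes of each heart, members 2-fold higher at the injury, and the 10 whose ratio to myl7 differed most between hearts. Other members, and the pairs of UQCRC2, COX5B, atp5me and atp5if1, were named after their values were seen.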

Additional observations from a re-analysis of the deposited data

Results flagged for a closer look

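Respiratory genes were also detected in the sections left out for low totals, which enter no comparison above. At 3 dpi the 5 sections left out, 2 to 6, held 2340 member counts among 70293, or 33289 CPM, with 66 counts of myl7. At 7 dpi the 14 sections left out held 5793 member counts among 111570, or 51923 CPM, and ranged from 14713 to 95041 CPM by section, with 408 counts of myl7. The 3 dpi value is below that of the used injury-side sections, 43973 CPM, and the 7 dpi value lies between the injury side, 30450 CPM, and the remote side, 63347 CPM. No sample of these groups is uninjured or blank, so the level was set only against the limit of 3 counts that a count of 0 allows.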

How the results depend on the processing

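Of 105 recomputed counts of members, 10 could not move or barely could, being 3 dpi counts without a 7 dpi section or ratios to myl7 under a common scaling. Of the other 95, 84 stayed within 1.5 times the reported count and 11 moved. The 3 dpi count of remote-sided members, 32, became 20 with a section minimum of 40% and 9 with runs of equal number. The 7 dpi count, 29, became 17 with the mean of section CPM, 9 without each gene's section of most counts and 10 without section 34. The count of members higher in the 7 dpi middle, 0, became 2 with a section minimum of 5%, 1 with the mean of section CPM and 1 with no count minimum. The count by ratio to myl7 at 3 dpi, 42, became 13 with runs of equal number and 20 with the contractile sum as denominator, and that between the hearts, 20, became 10 with the latter, which also turned the members' median from 0.74 to -0.14. For single members, 1413 recomputed values stayed within the interval or range set for them and 393 did not, and no member past 2-fold turned direction. The causes of these moves were not tested, apart from the sections that a setting leaves out. A section minimum of 5% put the 7 dpi borders elsewhere, with sections 33 to 38 as the remote side, and the median of all IDs at -0.46. At 3 dpi it made sections 1 to 6 the injury side and sections 7 to 19 the middle. Low counts of single genes limit the folds against the 7 dpi injury side, where COX5B (ENSDARG00000068738) had 1 count and cox4i1l 2 among 483868. No paired analysis was possible because each day is 1 heart, so no number links samples across the groups.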
